A study of Mus musculus with 7 samples.

Results

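Laminins, nidogens and netrin 4 are secreted proteins of the basement membrane, and 10 of their genes were followed through RNA of 7 mouse brain tumours: the laminin alpha chain genes Lama1, Lama2, Lama4 and Lama5, the beta chain genes Lamb1 and Lamb2, the gamma chain gene Lamc1, the nidogen genes Nid1 and Nid2, and the netrin gene Ntn4. They were listed by name, and among the 37620 genes counted they were chosen by their CPM (read counts scaled to TMM-adjusted library sizes) in the tumours and by the comparison of the 2 tumour lines, so that contrast is a description here. All 10 were in the tables, and all 10 were among the 16068 genes that passed the filter on low counts.

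The tumours had grown in the brains of nude mice, a strain that lacks a thymus, after injection of cultured glioblastoma stem-like cells whose source was the subventricular zone, where neural stem cells reside. There were 3 GSC2 tumours, from cells labelled shp53, Nf1-/- and CDK4 (a hairpin RNA to p53, a null Nf1 gene and the cell cycle kinase CDK4), and 4 GSC1 tumours, from cells labelled lgT and Ras. The tumours were independent of each other, with 1 library each. Since a single line carried each set of changes, line and genotype cannot be told apart, and the age of the mice is not given in the sources used here. The labels call the material tumour cells and name no sorting, and markers of host vessels, meninges and brain were counted in every tumour.

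A basement membrane is a thin sheet of matrix that lies under epithelia, around vessels and at the brain surface. Laminins are its cross-shaped heterotrimers of an alpha, a beta and a gamma chain, which polymerise and bind integrins and dystroglycan on cells. Nidogens tie the laminin gamma 1 chain to the collagen IV network. Netrin 4 carries a domain related to the laminin short arms, binds laminin gamma chains and disturbs the laminin polymer. In brain, endothelial cells are known to lay down alpha 4 and alpha 5 laminins, astrocytes alpha 2 laminin at their endfeet, and pial and meningeal cells alpha 1 laminin.

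The libraries held 18643155 to 32643408 reads counted on genes. Endothelial markers were present in every tumour and varied little, with a mean log2 CPM of 3.75 to 4.25 in GSC2 and 3.99 to 4.41 in GSC1. Fibroblast and meningeal markers averaged 4.59 to 5.17 in GSC2 and 4.00 to 6.38 in GSC1, with GSC1 replicates 3 and 4 the highest. A brain score, the mean of neuron and mature oligodendrocyte markers, was 6.33, 7.78 and 7.67 in GSC2 replicates 1 to 3 and 6.21, 4.90, 8.37 and 7.75 in GSC1 replicates 1 to 4. The tumours carried the neural stem cell gene Sox2, at 199, 163 and 130.0 CPM in GSC2 and 122, 148, 70.7 and 72.7 CPM in GSC1. Long transcripts were under-represented in GSC2 replicate 3 and in GSC1 replicates 3 and 4. In these libraries the median log2 deviation of long transcripts (8000 bases or more) less that of short ones (2000 bases or fewer) was -0.70, -0.40 and -0.36, while the other 4 lay between 0.02 and 0.64. The genes described here have transcripts of 3646 bases (Ntn4) to 11388 bases (Lama5), so their levels in these 3 libraries are given with that in view, and the part of the length trend in each level was not tested.

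Scaled by transcript length, the beta 1 and gamma 1 chains were the most abundant. Mean levels over the 7 tumours, in CPM per kilobase of the longest transcript, were 69.6 for Lamb1, 31.8 for Lamc1, 19.9 for Lama5, 15.8 for Lamb2, 12.3 for Ntn4, 7.53 for Nid1, 6.47 for Lama4, 2.91 for Nid2, 1.23 for Lama2 and 0.623 for Lama1. The first steps of this order held in every library: Lamb1 exceeded Lamc1 in 7 of 7 tumours and Lamc1 exceeded Lama5 in 7 of 7. From there the neighbours traded places, with Lama5 above Lamb2 in 4 of 7, Lamb2 above Ntn4 in 4 of 7, Ntn4 above Nid1 in 5 of 7 and Nid1 above Lama4 in 3 of 7. Lama4 exceeded Nid2 in 5 of 7, Nid2 exceeded Lama2 in 6 of 7 and Lama2 exceeded Lama1 in 6 of 7.

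The alpha 5, beta 1 and gamma 1 chains, which can join in one laminin of vessel walls, varied strongly from tumour to tumour and did so together. Lama5 was at 324, 242 and 84.5 CPM in GSC2 replicates 1 to 3, against 289, 569, 28.8 and 47.2 CPM in GSC1 replicates 1 to 4. The highest and lowest tumour, 19.8-fold apart, were both GSC1, and the GSC2 values lay inside the GSC1 range. Lamb1 was at 597, 405 and 192 CPM in GSC2, against 543, 818, 91.4 and 171 CPM in GSC1. Lamc1, the gamma chain of nearly all laminins, was at 349, 276 and 127 CPM in GSC2, against 264, 443, 113 and 125 CPM in GSC1. For all 3 genes GSC1 replicate 2 was the highest tumour and GSC1 replicate 3 the lowest, and GSC2 replicate 3 and GSC1 replicates 3 and 4 were the 3 lowest. These 3 are the libraries poor in long transcripts. Their beta 2 counterpart Lamb2, the chain of mature vessel and synaptic laminins, was the steadiest of the 10 genes, at 81.3, 88.7 and 67.4 CPM in GSC2 and 97.8, 118, 76.1 and 91.7 CPM in GSC1, a spread of 1.76-fold.

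Lama4 encodes an alpha chain without the N-terminal short arm and is known for the vessel wall. It was at 95.9, 54.4 and 24.2 CPM in GSC2, against 28.5, 48.9, 7.87 and 13.9 CPM in GSC1. The highest tumours were 2 of the 3 GSC2 tumours, but the third, GSC2 replicate 3, lay below 2 of the 4 GSC1 tumours, so the lines overlapped. Lama1 and Lama2 were the scarcest of the 10. Lama1, the alpha chain of the embryo and of the pial surface, was at 4.02, 11.3 and 1.95 CPM in GSC2 and 4.61, 5.70, 7.19 and 6.71 CPM in GSC1. Lama2, known for muscle and for the glial side of brain vessels, was at 7.89, 21.3 and 5.81 CPM in GSC2 and 4.58, 6.18, 17.7 and 19.2 CPM in GSC1. GSC2 replicate 2 had the most of both, and for Lama2 it stood with GSC1 replicates 3 and 4 apart from the other 4 tumours.

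The nidogens did not follow the abundant laminin chains. Nid1 was at 30.6, 48.9 and 31.6 CPM in GSC2, against 21.1, 33.6, 83.5 and 71.6 CPM in GSC1, highest in the 2 GSC1 tumours where Lama5 was lowest. Nid2 was at 12.5, 23.2 and 16.5 CPM in GSC2, against 8.0, 11.4, 8.62 and 19.0 CPM in GSC1. Its exons share 437 bases with Rtraf on the opposite strand, a gene at a mean of 96.1 CPM, and since the strand setting of the counting is not given in the sources used here, Nid2 is uncertain.

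Ntn4 was the one gene of the 10 whose values did not overlap between the lines. It was at 85.6, 58.9 and 50.5 CPM in GSC2, against 37.6, 42.2, 13.8 and 25.4 CPM in GSC1. Every GSC2 tumour lay above every GSC1 tumour. Of all 16068 genes tested 5.58% separated the lines in this way, 3.05% with GSC2 higher, so 1 of 10 is near that background.

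**Figure D1:**
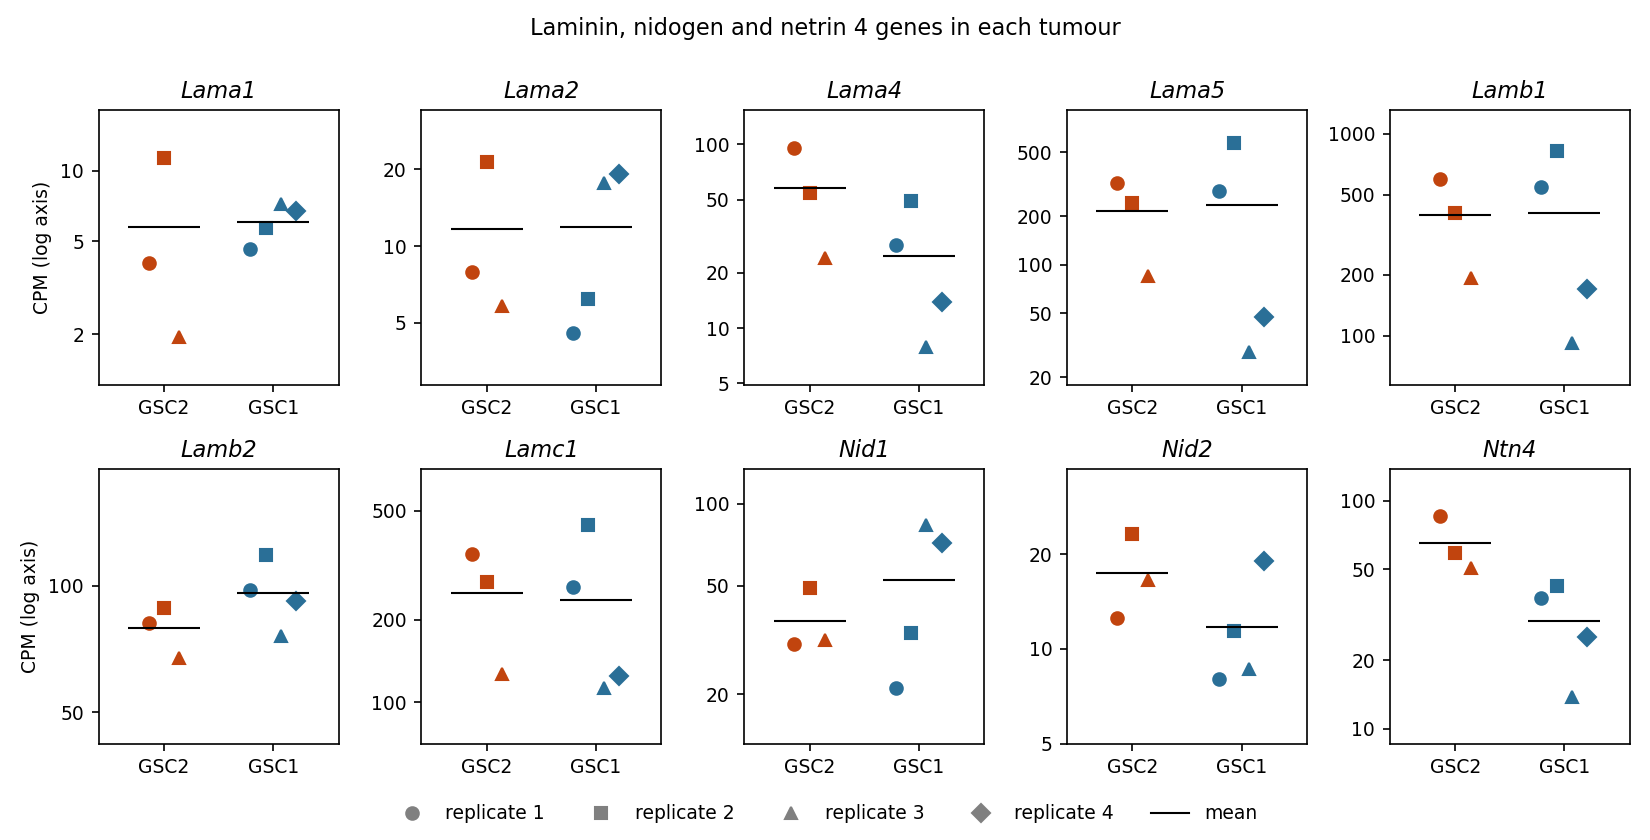
Level of each of the 10 genes in CPM (log axis) in the 3 GSC2 and 4 GSC1 tumours; the marker shape gives the replicate number and the line the mean. Ntn4 shows no overlap between the lines, at 50.5 to 85.6 CPM in GSC2 and 13.8 to 42.2 CPM in GSC1, whereas Lama5 and Lamb1 spread as widely within GSC1 as over all tumours.

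The difference between the lines was within the spread of their tumours for 9 of the 10 genes. At a Benjamini-Hochberg adjusted p under 0.05, none of the 10 was called by edgeR (quasi-likelihood), which called 0% of all genes, and none by DESeq2 (1.19% of all genes) or by limma-voom (0.00622%). At an unadjusted p under 0.05 in edgeR there was 1 of the 10, Ntn4, where 4.21% of all genes were, 2.32% with GSC2 higher. The log2 fold change, GSC2 minus GSC1, was 1.13 (SE 0.40) for Ntn4, 1.23 (SE 0.68) for Lama4 and 0.57 (SE 0.39) for Nid2. It was -0.50 (SE 0.50) for Nid1, which was at 0.37 (SE 0.39) with the endothelial score as a covariate, -0.28 (SE 0.23) for Lamb2 and within 0.11 of 0 for Lama1, Lama2, Lama5, Lamb1 and Lamc1. In levels, Ntn4 averaged 65.0 ± 18.3 CPM in GSC2 and 29.8 ± 12.8 CPM in GSC1, and Lama4 averaged 58.2 ± 36.0 CPM in GSC2 and 24.8 ± 18.3 CPM in GSC1 (SD, n = 3 and n = 4). Lama5 averaged 217 ± 122 CPM in GSC2 and 234 ± 253 CPM in GSC1, and in GSC1 its SD exceeded its mean. Without the 3 libraries poor in long transcripts, where edgeR called 0.348% of all genes, Ntn4 was at 0.85 (adjusted p = 0.207) and Lama4 at 0.95 (adjusted p = 0.290). In that fit Lama2 had the highest fold change of the 10, at 1.45 (adjusted p = 0.276), and Nid1 turned positive, at 0.55 (adjusted p = 0.501). The median fold change of the 10 was -0.03, equal to the median of -0.03 over all genes tested, with 4 positive and 6 negative.

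When the fit took account of the brain score, Ntn4 and Lama4 passed, both higher in GSC2. Ntn4 had a log2 fold change of 1.39 (SE 0.20, edgeR quasi-likelihood test, Benjamini-Hochberg adjusted p = 0.0370) and Lama4 one of 1.77 (SE 0.29, adjusted p = 0.0478). In that fit 0.846% of all genes passed, 0.591% with GSC2 higher. When each library's length trend was also taken out, a fit that called 2.06% of all genes, the edgeR fold changes were 1.34 for Ntn4 (adjusted p = 0.0156) and 1.58 for Lama4 (adjusted p = 0.0153). With fewer tumours the calls were fewer over all genes too, 1 to 72 in place of 136 in the 6 fits that follow. Neither gene passed without GSC1 replicate 1, 2, 3 or 4 or without GSC2 replicate 1 or 2, with edgeR adjusted p of 0.0546 to 0.178 for Ntn4 and 0.0627 to 0.200 for Lama4, and both passed without GSC2 replicate 3, where 101 genes did. The fold changes stayed between 1.14 and 1.49 for Ntn4 and between 1.51 and 2.04 for Lama4 in these fits. With the endothelial score in its place, where 0% of all genes passed, the fold changes were 0.81 (SE 0.38) for Ntn4 and 0.88 (SE 0.64) for Lama4. In the brain score fit Lama5 and Lamb1 turned positive, at 1.32 (SE 0.43, adjusted p = 0.165) and 0.77 (SE 0.31, adjusted p = 0.228) in edgeR.

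**Figure D2:**
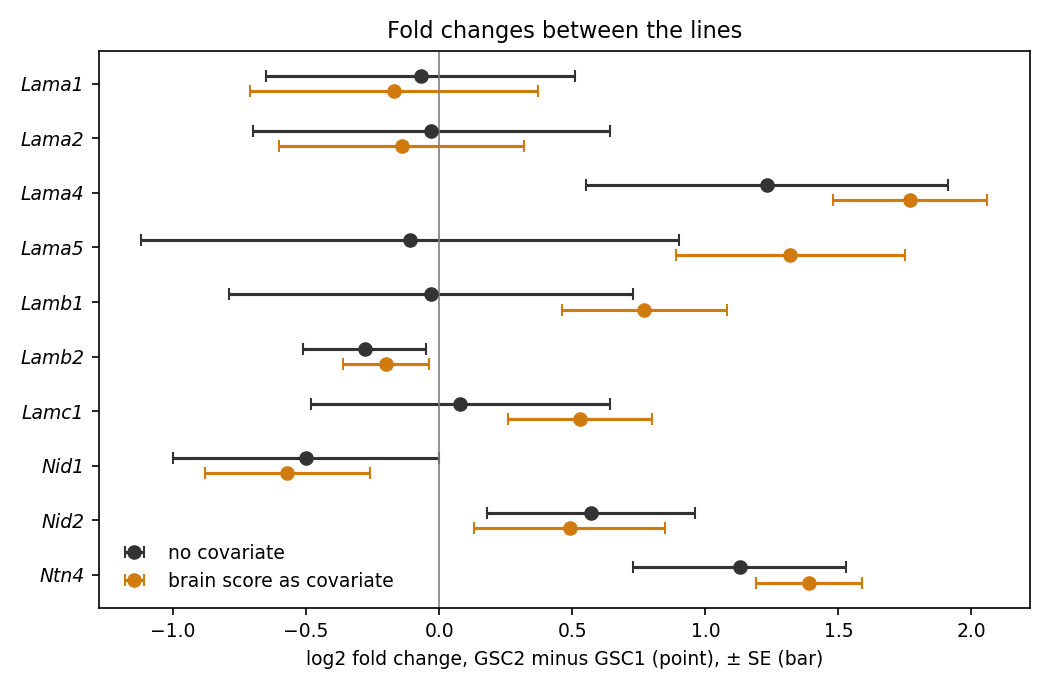
Log2 fold change of each gene, GSC2 minus GSC1, as points with bars of ± SE from edgeR, without a covariate (dark) and adjusted for the brain score (orange). Ntn4 and Lama4 lie at 1.13 and 1.23 without the covariate and at 1.39 and 1.77 with it, with shorter bars.

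The mix of chains within a tumour was described as shares of the counts scaled by transcript length. Lama4 made up 34.7, 26.5 and 32.4% of the alpha chain total in GSC2 replicates 1 to 3, against 15.1, 13.6, 19.7 and 24.8% in GSC1 replicates 1 to 4. Every GSC2 tumour had a larger share than every GSC1 tumour, with means of 31.2 ± 4.21% in GSC2 and 18.3 ± 5.05% in GSC1 (SD, n = 3 and n = 4). Shares of unscaled counts were lower, at 16.4 to 22.1% in GSC2 and 7.74 to 15.7% in GSC1, again without overlap. Lama5 was the main alpha chain throughout. It took 62.2, 62.7 and 60.1% in GSC2, against 81.2, 84.1, 38.3 and 44.8% in GSC1. The GSC2 tumours were nearly alike, while GSC1 split into replicates 1 and 2 above and replicates 3 and 4 below them. In those last tumours Lama2 took 27.9 and 21.6% and Lama1 11.4 and 7.62%, where in GSC2 Lama2 took 1.79 to 6.53% and Lama1 0.922 to 3.50%. Lama3, counted in the total, stayed at 0.205 to 2.57%.

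Among beta chains Lamb2 made up 12.3, 18.4 and 26.5% of Lamb1 and Lamb2 together in GSC2, against 15.6, 13.0, 46.1 and 35.5% in GSC1. The large shares of GSC1 replicates 3 and 4 came with low Lamb1. Nid1 made up 66.2, 62.8 and 60.5% of the nidogens in GSC2, against 67.9, 70.3, 88.6 and 75.1% in GSC1, so every GSC2 tumour lay below every GSC1 tumour. This share also rests on Nid2, whose counts are uncertain because of the exons shared with Rtraf. The difference of the means was -12.3 percentage points, and -7.93 without GSC1 replicate 3. For Lama4, Lamb2 and Nid1 counting error was small beside the differences of the means. The corresponding shares of unscaled counts had 95% Wilson intervals of at most 3.05 percentage points to either side. The nearest tumours of the lines were closer than that, with Nid1 shares of 66.2% in GSC2 replicate 1 and 67.9% in GSC1 replicate 1. For Lama4 the nearest unscaled shares were 16.4% in GSC2 and 15.7% in GSC1, with intervals of up to 1.66 points. Counting error could thus undo either separation. Reads are not independent molecules, so these intervals cover counting error alone. The genes were chosen with their levels known, and no test was made of the shares. No background of non-overlap is given for shares.

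**Figure D3:**
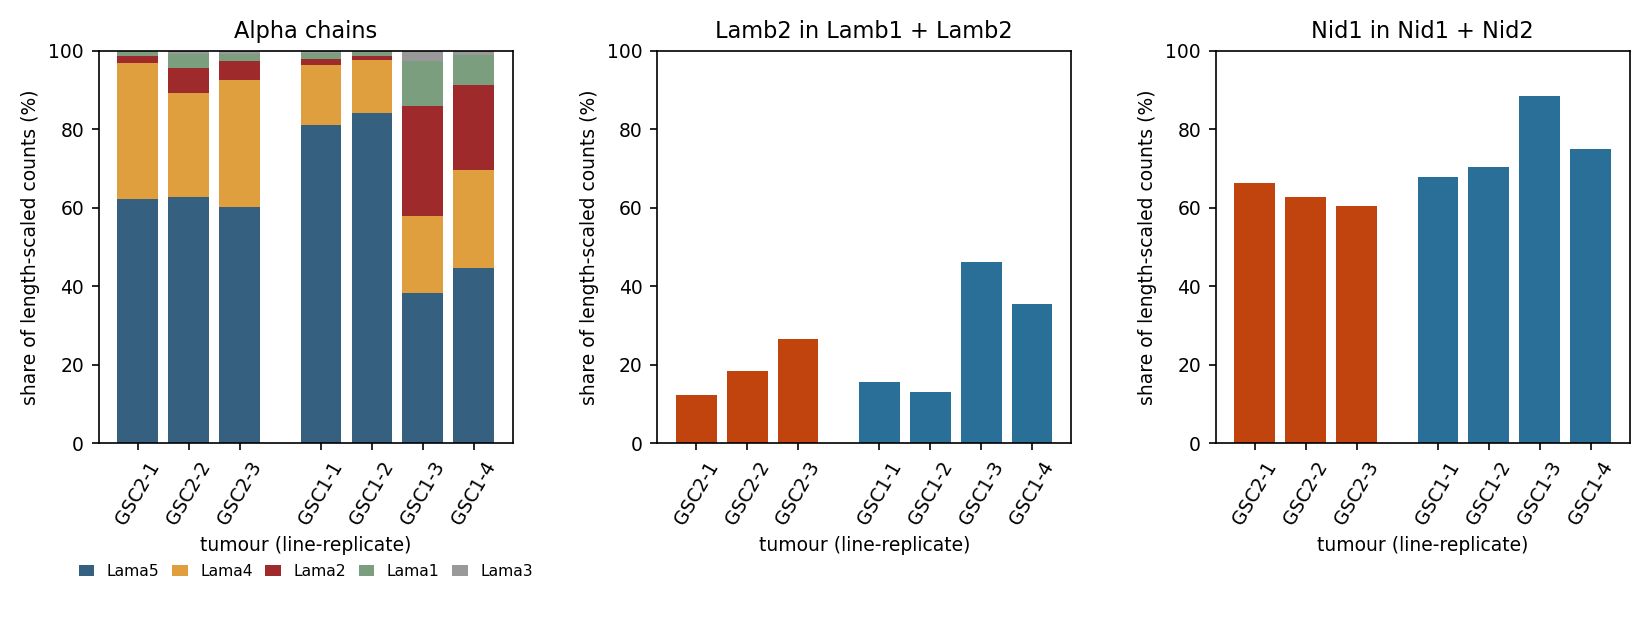
Share of length-scaled counts in percent for each tumour, GSC2 to the left of GSC1: the 5 laminin alpha chains as stacked bars, Lamb2 in Lamb1 plus Lamb2, and Nid1 in Nid1 plus Nid2. Lama4 takes 26.5 to 34.7% in GSC2 and 13.6 to 24.8% in GSC1, and Lama2 reaches 27.9% in GSC1 replicate 3.

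Over the 7 tumours some of the genes varied together and some in opposite directions. Lama5 and Lamb1 had a Pearson r of 0.99 in log2 CPM, Lama5 and Lamc1 0.97, Lamb1 and Lamc1 0.96, and Lama4 and Ntn4 0.94. Lama2 and Nid1 had an r of 0.90. The sign was negative between Nid1 and the abundant chains, with -0.76 for Lama5 and Nid1, -0.75 for Lamb1 and Nid1 and -0.67 for Ntn4 and Nid1. Other pairs had r near 0 over the 7 tumours, among them Lama1 and Lama5 (-0.01), Nid2 and Lama5 (-0.05) and Lamb2 and Ntn4 (0.04). With the mean of each line removed, r for these pairs was 0.05, -0.21 and 0.83. After removal of the length trend of each library it was -0.51, -0.18 and -0.20 for them. With that trend removed r was 0.99 for Lama5 and Lamb1, 0.92 for Lama2 and Nid1 and -0.91 for Lama5 and Nid1. These values describe 7 tumours that differed in host tissue markers and depth, and the part of either in r was not tested. The median size of r was 0.54 over the 45 pairs and 0.53 over all pairs of genes tested. How often pairs among all genes reach the highest and lowest values named here was not counted.

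**Figure D4:**
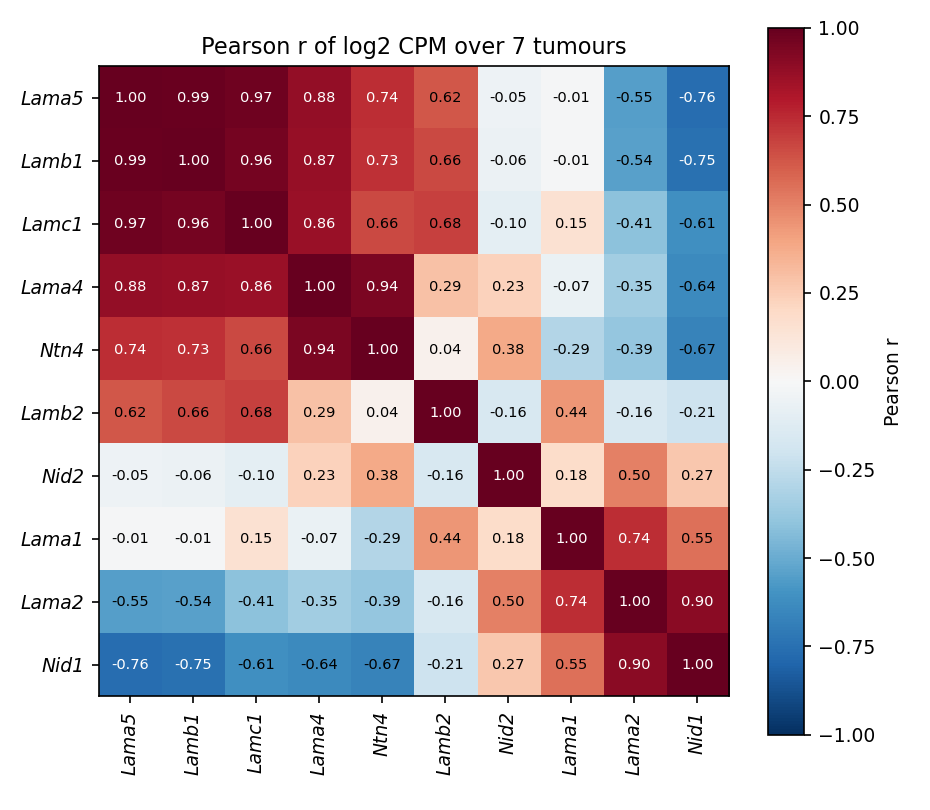
Pearson r of log2 CPM over the 7 tumours for each pair of the 10 genes, from -1 (blue) to 1 (red). Lama5, Lamb1, Lamc1, Lama4 and Ntn4 form a red block, with r from 0.66 to 0.99, and Nid1 is blue against each of them, from -0.61 to -0.76.

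The upstream sequences of Lama5, Lamb1, Ntn4, Lama2 and Nid1 are shown because their RNAs moved together or apart. They are the 250 bases before the annotated start from RefSeq, build GRCm38.p6, which held 6 of the 10 genes, written 5′ to 3′ on the gene's strand. Capitals mark matches on either strand to the GC box GGGCGG or to the CCAAT box.
Lama5 (chr2:180225860-180226109, minus strand): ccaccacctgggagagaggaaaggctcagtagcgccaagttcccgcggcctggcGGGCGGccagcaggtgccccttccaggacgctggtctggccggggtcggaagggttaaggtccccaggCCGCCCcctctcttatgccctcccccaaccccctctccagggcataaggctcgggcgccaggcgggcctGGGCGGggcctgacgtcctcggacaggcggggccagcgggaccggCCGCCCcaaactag
Lamb1 (chr12:31265043-31265292, plus strand): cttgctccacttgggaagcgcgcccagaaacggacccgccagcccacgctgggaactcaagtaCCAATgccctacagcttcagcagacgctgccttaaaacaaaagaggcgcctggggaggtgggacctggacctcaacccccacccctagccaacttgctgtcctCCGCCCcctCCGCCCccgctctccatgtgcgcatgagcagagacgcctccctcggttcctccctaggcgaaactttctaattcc
Ntn4 (chr10:93640799-93641048, plus strand): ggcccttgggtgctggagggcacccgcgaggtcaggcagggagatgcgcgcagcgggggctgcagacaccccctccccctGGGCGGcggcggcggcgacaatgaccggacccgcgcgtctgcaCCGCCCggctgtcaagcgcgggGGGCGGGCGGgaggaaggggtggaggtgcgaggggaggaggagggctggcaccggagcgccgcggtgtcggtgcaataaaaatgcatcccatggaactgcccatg
Lama2 (chr10:27616943-27617192, minus strand): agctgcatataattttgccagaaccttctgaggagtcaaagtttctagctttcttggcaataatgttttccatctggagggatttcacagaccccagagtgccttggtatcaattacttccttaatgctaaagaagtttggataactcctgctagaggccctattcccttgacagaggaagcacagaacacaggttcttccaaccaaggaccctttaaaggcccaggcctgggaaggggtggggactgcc
Nid1 (chr13:13437352-13437601, plus strand): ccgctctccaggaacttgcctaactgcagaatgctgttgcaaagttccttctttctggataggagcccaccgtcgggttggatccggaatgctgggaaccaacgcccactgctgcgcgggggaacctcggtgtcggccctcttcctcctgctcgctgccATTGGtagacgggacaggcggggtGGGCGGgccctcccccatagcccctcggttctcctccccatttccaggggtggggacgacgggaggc
Lama5 and Ntn4 held 4 GC boxes each, an overlapping pair among those of Ntn4, with Lamb1 at 2, Nid1 at 1 and Lama2 at 0. The CCAAT box was found once each in Lamb1 and Nid1. Over all 32851 upstream windows of this length 32.7% held the GC box and 33.8% the CCAAT box. The TATA box TATAAA, held by 12.4% of all windows, the E-box CACGTG, held by 6.02%, and the AP-1 element TGANTCA, held by 6.75%, were in none of these windows on either strand. The GC content was 72.4% for Lama5, 73.2% for Ntn4, 62.0% for Lamb1, 64.4% for Nid1 and 47.2% for Lama2, where the median window had 52.4%. Lamb2, whose window was also available but is not shown, had 43.6%, with 0 GC boxes and 0 CCAAT boxes. A match describes these letters and no binding.

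The genes outside the set whose pattern over the 7 tumours was most like each member were found among 11960 genes with a mean of at least 5 CPM. Picked as the highest of so many over 7 tumours, their r is high by selection. No background is given for it, and a function shared with a member was not tested. For Lama5 they were Osbpl3 (r = 0.998), Cttnbp2nl (0.998) and Ticrr (0.997), the last a gene of replication initiation. Ticrr was at 27.6, 16.3 and 6.01 CPM in GSC2 and 19.9, 38.0, 1.67 and 3.19 CPM in GSC1. For Lamb1 they were Hnrnpul1, E2f8, which encodes a cell cycle repressor, and Ccdc14 (each 0.998), and those of Lamc1 included Kdm3b (0.998) and Slmap (0.997). Lama4 was followed by Creb3l2 (0.998), Nfib (0.993) and Dennd1b (0.990). For Ntn4 they were Rsad2 (0.994), Cxcl10 (0.991) and Gbp2b (0.990). Rsad2, the gene of an antiviral enzyme, was at 181, 85.3 and 82.2 CPM in GSC2 and 34.6, 35.2, 2.74 and 12.6 CPM in GSC1. Lamb2 was closest to the laminin-binding integrin gene Itga3 (0.982), Ism1 and Flii (both 0.979). Nid1 was closest to Pptc7 (0.985), Wdr37 (0.983) and Slc38a1 (0.982), Lama2 to Map3k13 (0.985), Pcmtd1 (0.976) and Kif3a (0.975), Lama1 to the blood-brain barrier transporter gene Abcb1a (0.991), Map1b (0.986) and Tbc1d9b (0.956), and Nid2 to Shisa6 (0.978), Col2a1 (0.945) and Phactr2 (0.918).

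Host tissue varied between the tumours, and each gene was set against 4 marker scores: endothelial, pericyte and smooth muscle, fibroblast and meningeal, and brain. Of the 40 relations 3 passed an adjusted p of 0.05, with p-values adjusted over all 64216 relations of the genes tested. Lama5 was lower where the fibroblast and meningeal score was higher (Pearson r = -0.94, two-sided exact permutation p = 0.000992, 0.0345 adjusted), and by rank Spearman rho was -0.96 (exact p = 0.00278, 0.0471 adjusted). Lamb1 went the same way with r of -0.92 (exact p = 0.000992, 0.0345 adjusted) and rho of -0.96 (exact p = 0.00278, 0.0471 adjusted). Nid1 was higher where pericyte and smooth muscle markers were higher with r of 0.92 (exact p = 0.00357, 0.0451 adjusted) and rho of 0.82 (exact p = 0.0341, 0.121 adjusted). These genes had relations of similar size to other scores that did not pass. For Lama5 and Lamb1 r was -0.85 and -0.86 with the pericyte and smooth muscle score and -0.85 and -0.88 with the brain score. For Nid1 it was 0.91 with the fibroblast and meningeal score. The adjusted exact permutation p of these 5 was 0.0643 to 0.0741. With the endothelial score r was -0.57 for Lama5, -0.54 for Lamb1 and 0.83 for Nid1. Such relations were common among all genes, with 16.7% past the threshold for the fibroblast and meningeal score, 12.8% for the brain score, 10% for the pericyte and smooth muscle score and 1.98% for the endothelial score. At an unadjusted p under 0.05 there were 17 of the 40, where 14.3, 39.1, 47.1 and 44.6% of all genes were related to the 4 scores in the order given.

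With GSC1 replicates 3 and 4 left out, which lay farthest from the median of both scores, r was -0.78 for Lama5, -0.82 for Lamb1 and 0.67 for Nid1. With values centred in each line, which removes the difference between lines, r was -0.94 for Lama5 (exact p = 0.0625, 0.192 adjusted), -0.92 for Lamb1 (exact p = 0.0556, 0.192 adjusted) and 0.93 for Nid1 (exact p = 0.0417, 0.176 adjusted). Within lines 0 of the 40 passed after adjustment, where 0% of all genes did, and none did with any 1 of the 7 tumours left out. With 1 tumour left out 0% of the relations of all genes passed in 6 of the 7 cases and 2.99% without GSC2 replicate 3. With the length trend of the libraries removed 13 of the 40 (32.5%) passed over all tumours, where 14.3% of the relations of all genes passed. In bulk tumours fewer cells of a type and less RNA per cell cannot be told apart. Ntn4, set against the brain score, had r of -0.44 over all tumours and -0.92 within lines (exact p = 0.0347, 0.168 adjusted).

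**Figure D5:**
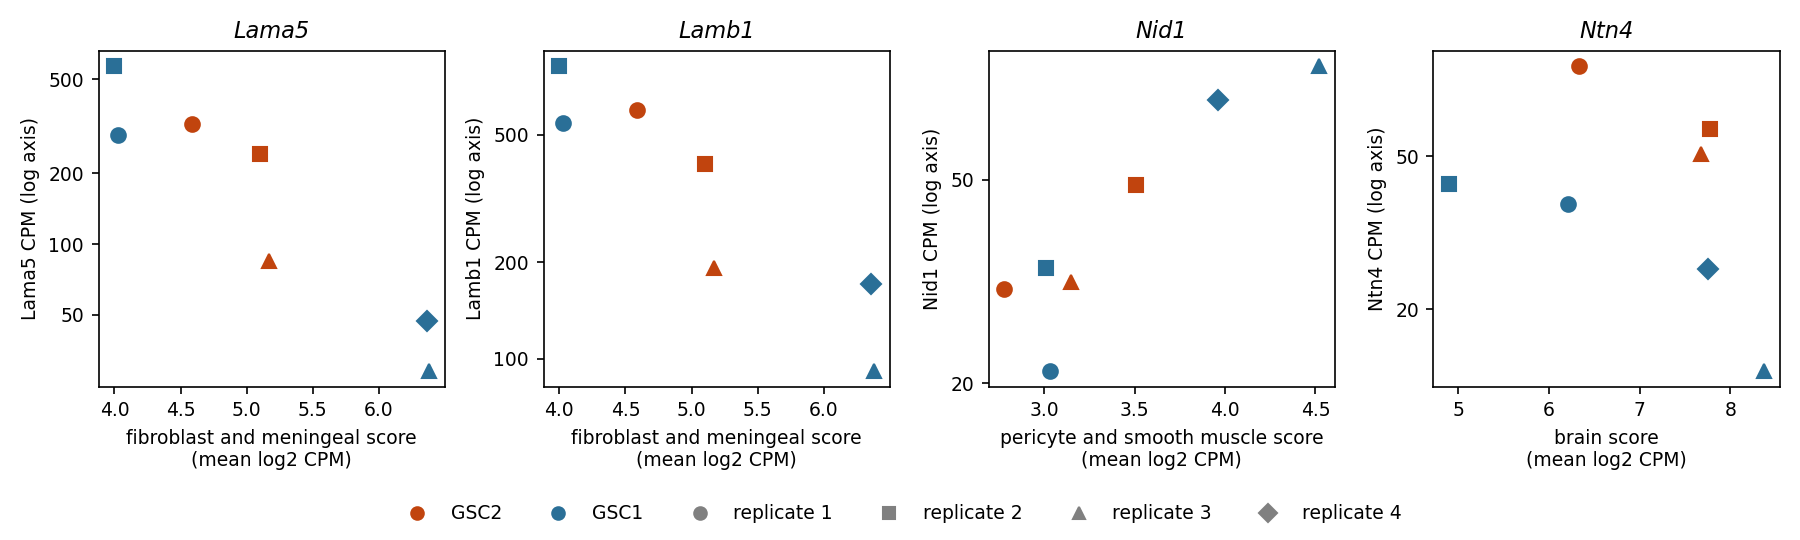
Level in CPM (log axis) of Lama5 and Lamb1 against the fibroblast and meningeal score, Nid1 against the pericyte and smooth muscle score and Ntn4 against the brain score, each score a mean of log2 CPM; colour gives the line and shape the replicate. Lama5 and Lamb1 are lowest in GSC1 replicates 3 and 4, where Nid1 is highest at 83.5 and 71.6 CPM.

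Genes that act with these proteins gave no call between the lines in edgeR without a covariate either, a fit that called 0% of all genes. An unadjusted p under 0.05 in it was found for 4.21% of all genes. Among the other laminin chains 0 of 4 passed edgeR's test and 2 had an unadjusted p under 0.05, both lower in GSC2. Lamb3 was at 1.73, 1.51 and 0.802 CPM in GSC2, against 3.56, 2.54, 12.3 and 5.00 CPM in GSC1. Every GSC2 tumour lay below every GSC1 tumour for this gene, where 5.58% of all genes separated the lines in either direction. Of 22 other basement membrane components 0 passed and 4 had an unadjusted p under 0.05, 3 higher in GSC2 and 1 lower, with 11 fold changes of each sign and a median of 0.10. Npnt, the gene of nephronectin, was at 134, 149 and 74.6 CPM in GSC2, against 36.6, 31.8, 16.5 and 27.3 CPM in GSC1 (log2 fold change 2.09, SE 0.36, edgeR adjusted p = 0.337), and in the brain score fit it was at 2.22 (SE 0.29, edgeR adjusted p = 0.0259). The collagen IV genes Col4a6 (1.12, SE 0.38) and Col4a5 (0.60, SE 0.24) had positive fold changes and the fibulin gene Fbln2 a negative one (-2.33, SE 0.75). Fbln2 was at 90.5, 172 and 109 CPM in GSC2 and 933, 1156, 211 and 183 CPM in GSC1, which again set GSC1 replicates 1 and 2 apart.

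Laminin receptors were counted in every tumour. Of 13 receptor genes 0 passed edgeR's test, which called 0% of all genes. An unadjusted p under 0.05 was found for 0 of the 13, where 4.21% of all genes had one, and the median fold change was -0.21. Itgb1, the beta subunit of most laminin-binding integrins, was at 922, 677 and 627 CPM in GSC2 and 1199.6, 1633, 660.4 and 587 CPM in GSC1, and Itga3 at 69.6, 82.8 and 48.2 CPM in GSC2 and 114, 147, 57.8 and 79.0 CPM in GSC1. Cd151, a tetraspanin partner of these integrins, had a fold change of -0.24 (SE 0.26) and Itga7 one of -0.30 (SE 0.35). The enzymes that glycosylate dystroglycan for laminin binding gave 0 of 11, none at an unadjusted p under 0.05, and a median fold change of -0.16. Of 10 other netrin and netrin receptor genes 0 passed and 0 had an unadjusted p under 0.05, with Unc5b at 149, 151 and 105 CPM in GSC2 and 314, 379.8, 97.7 and 99.4 CPM in GSC1. DESeq2 called 2 of the 161 listed genes, Npnt, higher in GSC2, and the astrocyte marker Gja1, lower in GSC2. It called 1.19% of all genes, so 2 of 161 is near that background.

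Markers of the cell types a tumour can hold gave 0 called genes in edgeR as well, where 0% of all genes were called and 4.21% had an unadjusted p under 0.05. Endothelial markers had 11 of 12 negative fold changes, a median of -0.30 and 0 of 12 at an unadjusted p under 0.05, with Pecam1 at 20.9, 27.3 and 17.5 CPM in GSC2 and 26.7, 20.8, 31.5 and 38.5 CPM in GSC1. Pericyte and smooth muscle markers had 3 of 12 at an unadjusted p under 0.05, all lower in GSC2: Pdgfrb, Acta2 and Tagln. Pdgfrb was at 21.3, 38.3 and 28.6 CPM in GSC2 and 56.4, 53.7, 69.5 and 41.3 CPM in GSC1. Fibroblast and meningeal markers had 1 of 10, Col3a1, at 202, 135 and 155 CPM in GSC2 and 272, 237, 480.3 and 228 CPM in GSC1. Choroid plexus markers varied most, with a mean log2 CPM of 4.82, 5.68 and 6.40 in GSC2 and -1.22, -1.52, 0.81 and 7.63 in GSC1, and 0 of 8 had an unadjusted p under 0.05. The 4 tumours with the most of these markers, all 3 of GSC2 and GSC1 replicate 4, were also the 4 highest for Nid2, whose counts are uncertain. The margin was small, with Nid2 at 12.5 CPM in GSC2 replicate 1 and 11.4 CPM in GSC1 replicate 2. This match was seen in the data and was not tested. Tumour stem and glial progenitor markers averaged 7.10 to 7.34 in GSC2 and 6.66 to 6.80 in GSC1. These means did not overlap, and no background of non-overlap is given for list means. Of the 8 genes 1 had an unadjusted p under 0.05 in edgeR, Prom1, higher in GSC2. The fold change was positive for 7 and negative for Nes (-0.59, SE 0.70). The part of these cell types in the levels of the basement membrane genes was not tested.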

How the data were processed

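RNA of 7 tumours was sequenced, 1 library each. The authors deposited raw, unnormalized counts of reads on each Ensembl gene. The submitters' processing notes name TopHat2 2.0.11 and HTSeq, and the builds mm9 and dm3 with no role. How HTSeq was set for strand and overlaps is not given in the sources used here. Reads on no gene were 6.19 to 14.2% of those listed, and the 5 summary lines were left out. Symbols (32897 of 37620 identifiers) and transcript lengths came from GENCODE vM21, a later build. No pair of libraries was a duplicate: the smallest chi-square between any pair was 70.9 per degree of freedom.

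Groups and replicate numbers came from the sample titles. The test was that of edgeR 4.0.16 in R 4.3.3 (TMM, filterByExpr, robust quasi-likelihood fit) for GSC2 against GSC1, with Benjamini-Hochberg adjustment over 16068 genes and a threshold of 0.05. The SE is the fold change divided by the root of the F statistic. Alternatives used RLE and upper-quartile factors, other filters, DESeq2 1.42.0, limma-voom (limma 3.58.1), the replicate number as a block, brain and endothelial scores as covariates, a loess length trend (span 0.5) as an offset, and fewer libraries. Scores are means of log2 CPM with a prior count of 2. Relations used exact permutation over 5040 pairings, or over 144 arrangements within lines, in Python 3.11.15 with scipy 1.17.1. They were adjusted over all genes, not over the 40 relations as first planned. Tests were checked on simulated data.

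The members and lists were chosen with earlier results of these data known. Named genes are the members, the 3 genes most like each (mean of at least 5 CPM, predicted genes left out) and, from each list, the 4 genes of lowest p or fewer. P-values measure the spread between tumours of these lines. Of the listed genes, Ntn3 was not analysed here, and a few that the rule names are not reported here.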

Additional observations from a re-analysis of the deposited data

How the results depend on the processing

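Without a covariate edgeR called 0 genes in all, and the count was 1 without a filter, 192 in DESeq2, 1 in limma-voom, 136 with the brain score, 331 with the brain score and the length trend (added after seeing the data) and 55 without the 3 libraries poor in long transcripts. Of the 10 basement membrane genes 0 were called under these settings except in both brain score fits, where 2 were, Lama4 (1.77 with the brain score alone) and Ntn4 (1.39). With the brain score alone, leaving out each tumour gave 1 to 101 genes in all, 0 to 2 of the 10, and fold changes of 1.51 to 2.04 for Lama4 and 1.14 to 1.49 for Ntn4. Of the other listed genes 0 were called, against 2 in DESeq2, 1 with the brain score and 8 without the 3 libraries.

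The fold changes of 6 genes changed sign, those of Lama1, Lama2, Lama5, Lamb1 and Lamc1, which lay near 0, and that of Nid1 (-0.50). With the endothelial score Lama1 was at 0.35, Lama2 at 1.08, Lamc1 at -0.15 and Nid1 at 0.37. Without the 3 libraries Lama1 was at 0.59, Lama2 at 1.45, Lamc1 at -0.18 and Nid1 at 0.55. In limma-voom Lama2 was at 0.14, Lama5 at 0.61 and Lamb1 at 0.32. With the brain score Lama5 was at 1.32 and Lamb1 at 0.77, and with the length trend Lamc1 was at -0.07. With each tumour left out the ranges were -1.02 to 0.36 for Lama1, -0.80 to 0.31 for Lama2, -0.52 to 0.83 for Lama5, -0.45 to 0.57 for Lamb1 and -0.23 to 0.58 for Lamc1. The cause of these changes was not tested. Lama4, Lamb2, Nid2 and Ntn4 kept their sign under every setting run.

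Deviations of same-numbered tumours from their line means had r of 0.58, -0.31 and 0.41. By r of these deviations alone, the GSC1 tumours closest to GSC2 replicates 1, 2 and 3 were replicates 2, 3 and 3. Whether the numbers mark a pairing was not tested. With the replicate block 0 genes were called, and Lama2 was at 0.37, Lama5 at 0.16, Lamb1 at 0.07 and Lamc1 at -0.04.

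Of the 40 relations to marker scores 13 passed with the length trend removed (14.3% of all relations) and 0 with any tumour left out, where 0% of all relations passed, or 2.99% without GSC2 replicate 3, and where the permutations can give no p below 0.0014. Unscaled counts shifted the shares themselves, Lama5 to 71.8 to 74.7% in GSC2. Differences between the lines in chain shares moved by less than the spread between tumours with coding lengths, unscaled counts or a tumour left out, with the Lama4 difference at 12.9 percentage points with length scaling and 8.55 without it. A coding length from a protein table was not run.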
